A study of Mus musculus with 6 samples.

Results

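The proteasome subunit genes of colonic group 2 innate lymphoid cells (ILC2s) were followed here in DSS colitis. They were taken from the deposited expression table by symbol, as every gene named Psma, Psmb, Psmc or Psmd followed by a number, leaving out the immunoproteasome genes Psmb8, Psmb9 and Psmb10. This gave 36 of 23268 genes, 16 of the 20S core (Psma and Psmb) and 20 of the 19S regulatory particle (Psmc and Psmd). The animals were C57BL/6 mice, 6 to 8 weeks old, with no other allele named, and colonic ILC2s were sorted after the mice had received 3% dextran sulfate sodium (DSS), a chemical that injures the colonic epithelium, for 6 days, or water (control) for the same time. RNA sequencing of full-length cDNA gave 3 DSS and 3 control libraries. Neither the sort gate nor the number of mice behind a library is given in the labels, and the spread that the p-values rest on may therefore be technical. In such bulk samples fewer cells of a type and less RNA per cell cannot be told apart.

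The proteasome is the main protease of the cytosol and nucleus for proteins tagged with ubiquitin. Its barrel-shaped 20S core holds the active sites inside rings of beta subunits, closed at both ends by rings of alpha subunits. The 19S particle sits on the core, where its lid and ubiquitin receptors take in tagged proteins and its ring of ATPases unfolds them and feeds them into the barrel. Lymphocytes also use proteasomes to make peptides for MHC class I, and can exchange the constitutive catalytic subunits for the interferon-inducible ones of the immunoproteasome.

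The libraries held 9992397 to 19008206 fragments in DSS and 12714231 to 23196525 in control. Of the 36 genes, 34 had a mean of at least 1 FPKM (fragments per kilobase of gene, scaled to the depth of the library) and were tested: 14 of the 20S core and 20 of the 19S particle. These 34 rested on 121 to 7330 fragments per library. Summed levels of 10 ILC2 markers were 1473 to 1760.4 FPKM in DSS and 2433 to 2547 FPKM in control, and none of the 10 was at 0 in any library. Summed neutrophil markers were 67.3 to 109 FPKM in DSS and 3.19 to 8.003 FPKM in control, macrophage and monocyte markers 21.0 to 49.1 and 13.8 to 18.1, and colon epithelial markers 29.6 to 33.9 and 12.6 to 21.0. T cell markers (6 of the 7 fixed were listed) summed to 21.5 to 56.8 FPKM in DSS and 23.3 to 31.1 in control, and stromal markers to 9.95 to 23.6 and 17.8 to 30.3. The 5 B cell markers summed to 189, 161 and 42.3 FPKM in DSS replicates 1, 2 and 3 and to 23.2 to 34.9 FPKM in control. All DSS libraries lay below all controls in 5 of 10 ILC2 and 1 of 5 stromal markers (9.60% of all genes tested). They lay above all controls in 3 of 10 neutrophil, 2 of 10 macrophage and monocyte and 3 of 10 epithelial markers. The same held for 2 of 5 B cell and 0 of 6 T cell markers (6.35% of all genes tested). Of these lists, neutrophil Ly6g, Cxcr2, Mmp8, Retnlg, Ngp, Ltf and S100a8, macrophage Adgre1, Csf1r, Itgam, C1qa and C1qc, epithelial Krt19, Krt20, Vil1 and Fabp2, T cell Cd8a and B cell Ms4a1 were among the genes at 0 in at least 1 library. The part that such cells play in the values below was not tested.

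Over all 12187 genes tested, 27 passed an adjusted p of 0.05 by limma (a linear model with moderated variances) on log2(FPKM + 1), which is 0.222% of them, with 9 higher (0.0738%) and 18 lower (0.148%) in DSS. Without 1 library this count was 413, 7 and 19 (DSS replicates 1, 2 and 3) and 4, 5 and 6 (control replicates 1, 2 and 3). No proteasome subunit gene was among the 27. The lowest limma adjusted p of the 34 was 0.249, and 4 of the 34 were lower and 0 higher at an unadjusted p under 0.05, against 5.42% lower and 3.57% higher of all genes tested. With limma voom on the recovered whole fragments, 0 of the 34 passed as well, with 5 lower and 0 higher at an unadjusted p under 0.05. In that fit 1186 of all 12187 genes were under it, in either direction. Without DSS replicate 1, however, 3 of the 34 passed, all lower in DSS (Psma2, Psma5 and Psmc4), against 2.31% lower and 1.08% higher of all genes.

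Most subunit transcripts had lower mean log2 levels in DSS than in control, none of them past the test. Log2 changes (DSS minus control) were below 0 for 27 of the 34 genes, against 46.9% of all genes tested. In the 19S particle 17 of 20 were below 0, with a median of −0.25, and in the 20S core 10 of 14, with a median of −0.10. The median of all genes tested was 0.03. Over genes with a mean of at least 5 FPKM, a level that all 34 exceeded, it was −0.08, close to the core median. All 6 ATPase genes and all 8 lid genes were below 0, and so were 6 of 7 alpha and 4 of 7 beta subunit genes. The core count depended on single libraries. Of the core genes, 14 of 14 were below 0 without DSS replicate 1, 5 of 14 without DSS replicate 3 and 4 of 14 without both replicates 3. For the 19S genes these counts were 17, 16 and 16 of 20. The median of all genes was 0.12, −0.11 and −0.026 in these settings. In 5 of the 20 19S genes every DSS library lay below every control library, against 9.60% of all genes tested, and in 0 of the 14 20S genes. None of the 34 had every DSS library above every control library, against 6.35% of all genes.

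**Figure D1:**
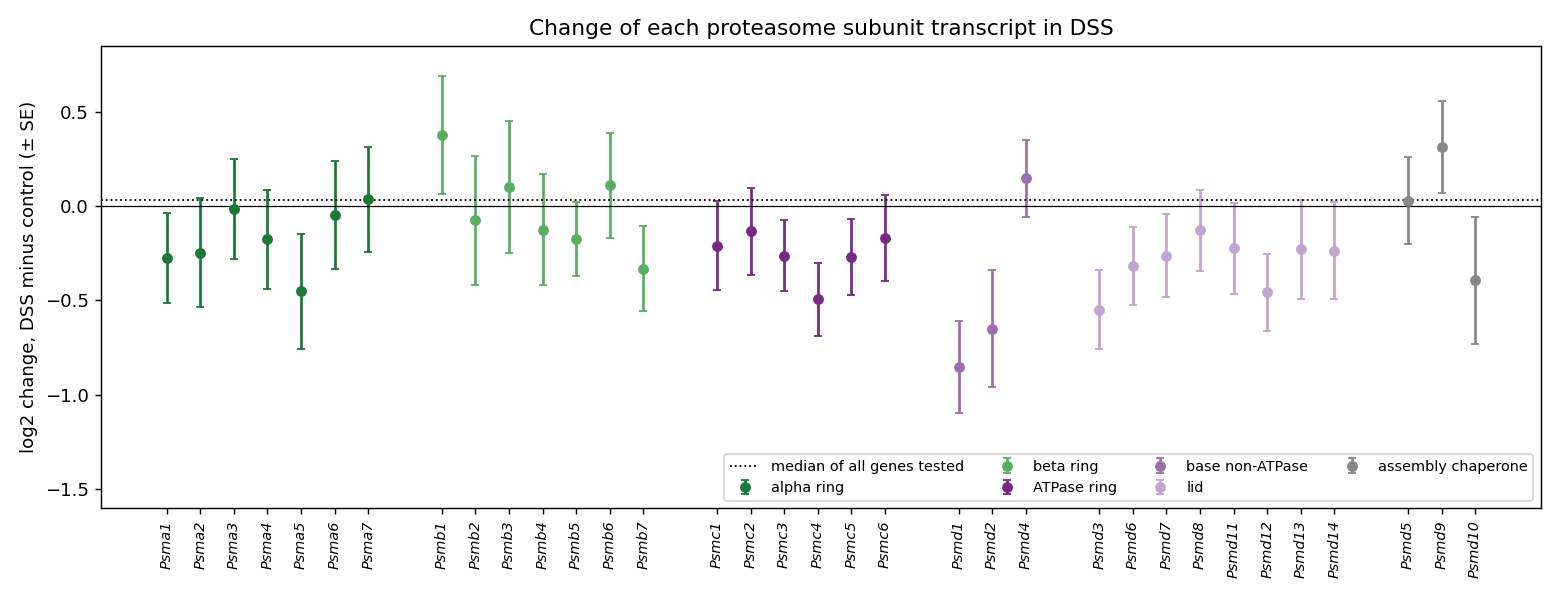
Log2 change (DSS minus control, log2(FPKM + 1) scale) of each of the 34 tested proteasome subunit genes, with bars for the standard error of the limma fit (3 libraries per group), grouped by place in the complex. The dotted line is the median of all genes tested, 0.03; all ATPase ring and lid genes lie below 0, while the alpha and beta ring genes lie on both sides of it.

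In the base of the 19S particle, Psmd1 encodes the scaffold subunit Rpn2, which holds ubiquitin receptors and anchors the base. It measured 10.6, 12.2 and 19.2 FPKM in DSS replicates 1, 2 and 3, against 25.5, 23.6 and 27.0 FPKM in control replicates 1, 2 and 3. All DSS libraries lay below all control libraries. The mean was 14.02 ± 4.55 FPKM in DSS and 25.4 ± 1.68 FPKM in control (SD, n = 3 each), a log2 change of −0.85 ± 0.24 SE (95% interval −1.40 to −0.31, limma adjusted p = 0.249). The gene lies on the plus strand of chromosome 1 (GRCm38, 86064387 to 86139151) and shares 252 exonic bp with Htr2b on the opposite strand and 301 bp with Gm21972 on its own. Psmd2, which encodes the other large scaffold Rpn1, measured 12.96, 19.7 and 33.9 FPKM in DSS, against 35.8, 30.9 and 32.2 FPKM in control. DSS replicates 1 and 2 were low and DSS replicate 3 lay among the controls, so the groups overlapped (log2 change −0.65 ± 0.31 SE, limma adjusted p = 0.589, or −0.33 without DSS replicate 1 and −0.996 without DSS replicate 3). Psmd4, the ubiquitin receptor Rpn10, was the 1 base gene without a lower mean, at 62.9 ± 10.7 FPKM in DSS and 56.2 ± 3.01 FPKM in control.

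In the lid, which cleaves ubiquitin chains from captured proteins, Psmd3 and Psmd12 had the smallest p. Psmd3, a structural subunit, measured 12.8, 16.7 and 17.4 FPKM in DSS replicates 1, 2 and 3, against 22.2, 25.7 and 21.8 FPKM in control. Psmd12, also structural, measured 23.1, 24.1 and 29.2 FPKM in DSS, against 30.5, 36.3 and 39.2 FPKM in control. In both genes the groups did not overlap, and neither passed (log2 changes −0.55 ± 0.21 SE and −0.46 ± 0.20 SE, limma adjusted p = 0.435 and 0.554). They lie on chromosome 11 (GRCm38), Psmd3 at 98682554 to 98695979 and Psmd12 at 107479484 to 107504362, both on the plus strand. Psmd14, the deubiquitinase of the lid, overlapped between the groups, at 41.9 ± 13.4 FPKM in DSS and 48.2 ± 7.04 FPKM in control. Psmd8 had the highest level of the Psmd genes in both groups, with 143 ± 31.9 FPKM in DSS and 154 ± 7.48 FPKM in control. The remaining lid genes had log2 changes from −0.32 (Psmd6) to −0.22 (Psmd11), each with overlapping groups.

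The 6 ATPases form the unfolding ring of the base. Psmc4 measured 51.2, 45.5 and 39.6 FPKM in DSS replicates 1, 2 and 3, against 68.4, 62.9 and 61.2 FPKM in control. All DSS libraries were below all controls, with a log2 change of −0.49 ± 0.19 SE (limma adjusted p = 0.457, or 0.0402 without DSS replicate 1). Psmc3, the ATPase gene with the highest level, measured 76.0, 80.8 and 66.9 FPKM in DSS, against 92.4, 89.5 and 86.2 FPKM in control, again without overlap. Its log2 change was −0.26 ± 0.19 SE (limma adjusted p = 0.762), and 215 of its exonic bp are shared with Slc39a13 on the opposite strand. Psmc6, the lowest, measured 13.6 ± 2.88 FPKM in DSS and 15.3 ± 2.07 FPKM in control. The log2 changes of the 6 ran from −0.49 to −0.13. Without both replicates 3, 4 of the 6 were below 0.

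Psmd5, Psmd9 and Psmd10 carry subunit names but are assembly chaperones of the base that leave the finished particle. They differed little or in both directions: 8.63 ± 1.29 FPKM in DSS and 8.48 ± 1.71 FPKM in control for Psmd5, 14.8 ± 4.44 and 11.5 ± 1.33 for Psmd9, and 9.28 ± 4.56 and 11.9 ± 3.20 for Psmd10. Psmd9 shares 1849 exonic bp with Gm26745 on the opposite strand, and reads of the pair cannot be told apart without strand. Leaving the 3 chaperones out, 16 of 17 19S genes were below 0, with a median of −0.26.

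The 20S core genes varied far more among the DSS libraries than among the controls. Psmb1, a non-catalytic beta subunit gene, measured 241, 119 and 96.8 FPKM in DSS replicates 1, 2 and 3, against 111, 114 and 99.6 FPKM in control. DSS replicate 1 was far above the other 5 libraries, which lay close together. Its log2 change was 0.38 ± 0.31 SE (limma adjusted p = 0.811), and −0.0089 without DSS replicate 1. Psmb2, also non-catalytic and the beta subunit with the highest level, measured 342, 173 and 118 FPKM in DSS, against 217, 197 and 191 FPKM in control. Here DSS replicate 1 was above all controls and DSS replicates 2 and 3 were below all of them (log2 change −0.07 ± 0.34 SE). The same split was seen in the alpha ring, which gates the barrel. Psma5 measured 58.1, 24.6 and 27.6 FPKM in DSS, against 50.7, 43.2 and 47.3 FPKM in control, and Psma2 measured 106, 54.6 and 47.9 FPKM in DSS, against 82.1, 75.3 and 75.8 FPKM in control. Over all libraries neither passed (log2 changes −0.45 ± 0.31 SE and −0.25 ± 0.29 SE, limma adjusted p = 0.745 and 0.869). Without DSS replicate 1 both fell, by 0.83 and 0.59 on the log2 scale (limma adjusted p = 0.00992 and 0.0317). Psma1 measured 75.3, 59.1 and 43.8 FPKM in DSS, against 70.3, 61.9 and 79.7 FPKM in control (log2 change −0.27 ± 0.24 SE, limma adjusted p = 0.818). Psma7 was the highest alpha gene, at 135 ± 55.8 FPKM in DSS and 125 ± 9.61 FPKM in control, and Psma4 the lowest of those tested, at 37.4 ± 14.2 and 40.6 ± 2.77.

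The catalytic genes Psmb5 (chymotrypsin-like site), Psmb6 (caspase-like site) and Psmb7 (trypsin-like site) differed in the direction of their mean change. That of Psmb6 depended on single libraries: it was −0.16 without DSS replicate 1 and −0.0042 without control replicate 1. Psmb5 measured 57.1, 54.2 and 43.6 FPKM in DSS replicates 1, 2 and 3, against 57.0, 55.4 and 62.1 FPKM in control (log2 change −0.18 ± 0.20 SE, limma adjusted p = 0.861). Psmb5, Psmb7 and Psma1 were the core genes in which DSS replicate 1 was not the highest library. Psmb6 measured 282, 186 and 137 FPKM in DSS, against 152, 180.1 and 208 FPKM in control (log2 change 0.11 ± 0.28 SE, limma adjusted p = 0.943). Psmb7 measured 22.2, 19.9 and 14.6 FPKM in DSS, against 24.2, 26.3 and 20.8 FPKM in control (log2 change −0.33 ± 0.22 SE, limma adjusted p = 0.745). In each library the FPKM, a level per gene length, was highest for Psmb6 and lowest for Psmb7. Without DSS replicate 1 the log2 changes of Psmb5, Psmb6 and Psmb7 were −0.25, −0.16 and −0.45, and with the trend of each library with gene length removed they were −0.46, −0.14 and −0.28. Psmb7 shares 405 exonic bp with Nek6 on the opposite strand, and Psmb5 contains the microRNA locus Mir686 (109 bp). In all, 9 of the 36 genes share exonic bases with another annotated gene, 8 of them with one on the opposite strand.

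**Figure D2:**
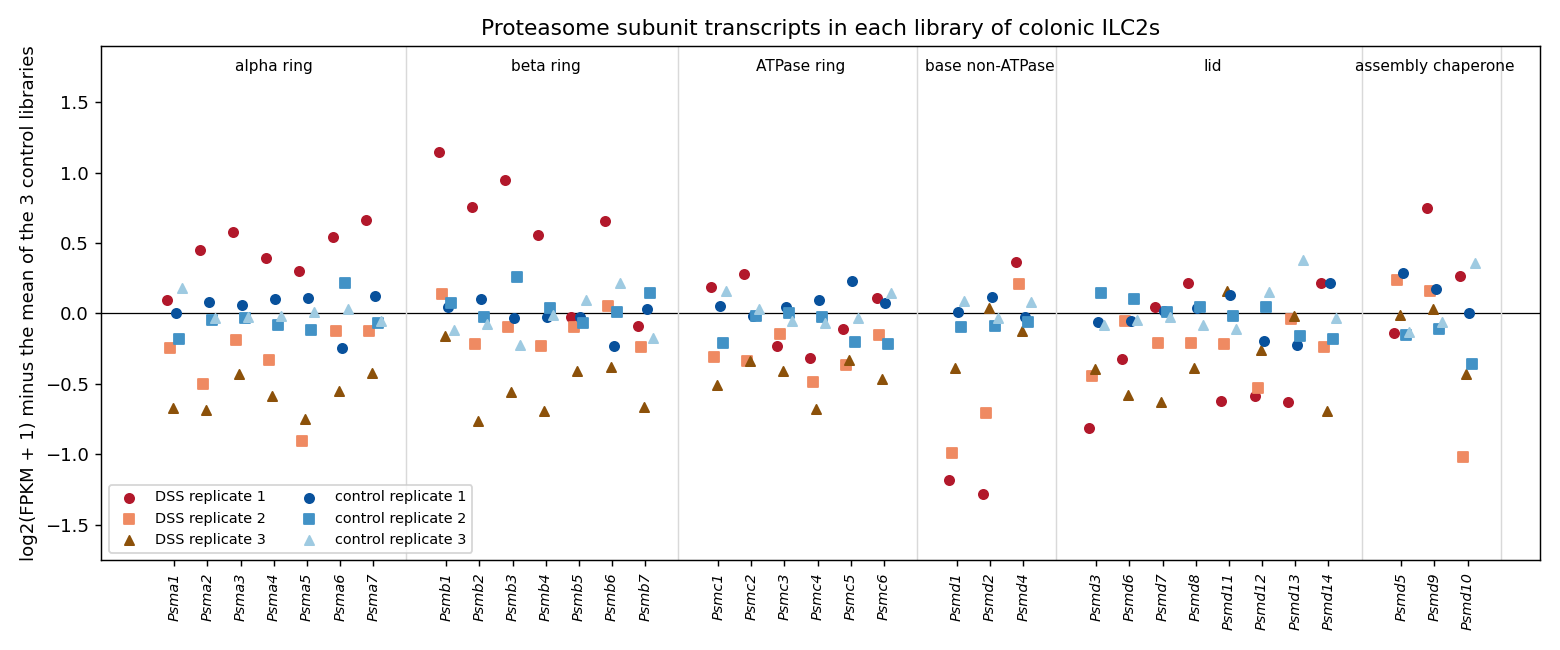
Log2(FPKM + 1) of each tested proteasome subunit gene in each library minus the mean of the 3 control libraries (zero line), with DSS libraries in red, orange and brown and controls in blue. DSS replicate 1 lies above the line in 12 of 14 alpha and beta ring genes and DSS replicate 3 in 0 of 14, while Psmd1, Psmd3, Psmd12, Psmc3 and Psmc4 have all DSS libraries below all controls.

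The promoters of the subunit genes were searched for 3 motifs on both strands, in RefSeq windows (GRCm38.p6) from 250 bases before to 50 bases after the start site. Such windows were matched for 29 of the 36 genes. The core of the antioxidant response element bound by Nfe2l1 and Nfe2l2, TGACNNNGC, was in 5 of the 29 (Psmb5, Psmb6, Psmc6, Psmd9 and Psmd12), or 17.2%, against 14% of all genes with a window. CCAAT was in 12 of 29, or 41.4%, against 41.1% of all genes: 7 of 12 in the core and 5 of 17 in the 19S particle. The heat shock element (inverted GAA repeats with fixed spacing) was in 0 of 29, against 0.662% of all genes. A match is only a run of letters in this window. The 250 bases before the start are printed 5′ to 3′ on the gene's strand for the 2 catalytic genes with the element and for Psmd12, the 1 gene with it among the 5 whose groups did not overlap. Capitals mark the element.
Psmb5 promoter, chr14:54617996-54618245, minus strand: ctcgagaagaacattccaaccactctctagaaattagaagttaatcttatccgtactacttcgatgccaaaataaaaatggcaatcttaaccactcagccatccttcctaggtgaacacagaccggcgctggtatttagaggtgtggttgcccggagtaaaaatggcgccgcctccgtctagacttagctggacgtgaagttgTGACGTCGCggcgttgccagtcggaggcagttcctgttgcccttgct
Psmb6 promoter, chr11:70525107-70525356, plus strand: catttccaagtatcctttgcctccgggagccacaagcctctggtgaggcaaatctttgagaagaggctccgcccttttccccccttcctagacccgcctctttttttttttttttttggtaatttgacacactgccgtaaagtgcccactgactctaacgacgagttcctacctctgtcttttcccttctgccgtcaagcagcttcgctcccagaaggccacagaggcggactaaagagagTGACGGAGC
Psmd12 promoter, chr11:107479278-107479527, plus strand: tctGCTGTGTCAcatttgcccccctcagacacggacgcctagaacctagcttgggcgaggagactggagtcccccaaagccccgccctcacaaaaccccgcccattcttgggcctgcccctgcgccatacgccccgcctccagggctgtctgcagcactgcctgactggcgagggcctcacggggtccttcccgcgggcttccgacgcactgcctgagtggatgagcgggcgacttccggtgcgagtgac
The element starts 47 and 9 bases before the start site in Psmb5 and Psmb6, and 247 bases before it, on the opposite strand, in Psmd12. In the other carriers it starts 227 bases before the start site in Psmc6, on the opposite strand, and 31 bases before it in Psmd9, and both genes had overlapping groups.

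The DSS libraries kept nearly 1 order across the core. DSS replicate 1 was the highest of the 6 libraries in 11 of 14 20S genes, and in 18.9% of all genes tested. DSS replicate 3 was the lowest of the 6 in 13 of 14, and in 12.2% of all genes tested. The spread (SD of log2 values) among DSS libraries was above that among controls in 14 of 14 20S genes and 17 of 20 19S genes, and in 77.2% of all genes. The median SD of the 20S genes was 0.56 in DSS and 0.11 in control, and that of the 19S genes 0.32 and 0.12. For all genes tested it was 0.47 in DSS and 0.22 in control. The mean log2(FPKM + 1) of the 14 genes was 6.82, 6.10 and 5.77 in DSS replicates 1, 2 and 3, and 6.33, 6.33 and 6.31 in control replicates 1, 2 and 3. The mean of the 20 19S genes was 4.81, 4.70 and 4.68 in DSS, and 5.04, 4.92 and 5.03 in control, so by this mean of the deposited values every DSS library lay below every control. The median deviation of the 19S genes from the control mean was −0.13, −0.23 and −0.39 in DSS replicates 1, 2 and 3. That of all genes tested was −0.17, −0.046 and 0.25, so in DSS replicate 1 the 19S genes were not low relative to their library. In DSS replicate 1, 9 of the 20 19S genes lay above their control mean. All 36 genes together made up 0.503%, 0.395% and 0.354% of the summed FPKM in DSS and 0.461%, 0.452% and 0.463% in control.

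The 20S core and the 19S particle were then set against each other within each library. The mean log2 level of the 20S genes exceeded that of the 19S genes by 2.02, 1.40 and 1.10 in DSS replicates 1, 2 and 3, and by 1.29, 1.41 and 1.28 in control replicates 1, 2 and 3. DSS replicate 1 was above and DSS replicate 3 below all controls, so the groups overlapped (1.50 ± 0.47 in DSS and 1.33 ± 0.07 in control, SD, n = 3 each). The summed FPKM of the core was 2.62, 1.71 and 1.43 times that of the 19S particle in DSS and 1.54, 1.66 and 1.59 times in control. The difference between the median log2 changes, 20S minus 19S, was 0.15. It rested on DSS replicate 1: without that library it was −0.058, with medians of −0.40 for the core and −0.34 for the 19S particle. Without DSS replicate 3 it was 0.36, and the core median was 0.18.

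**Figure D3:**
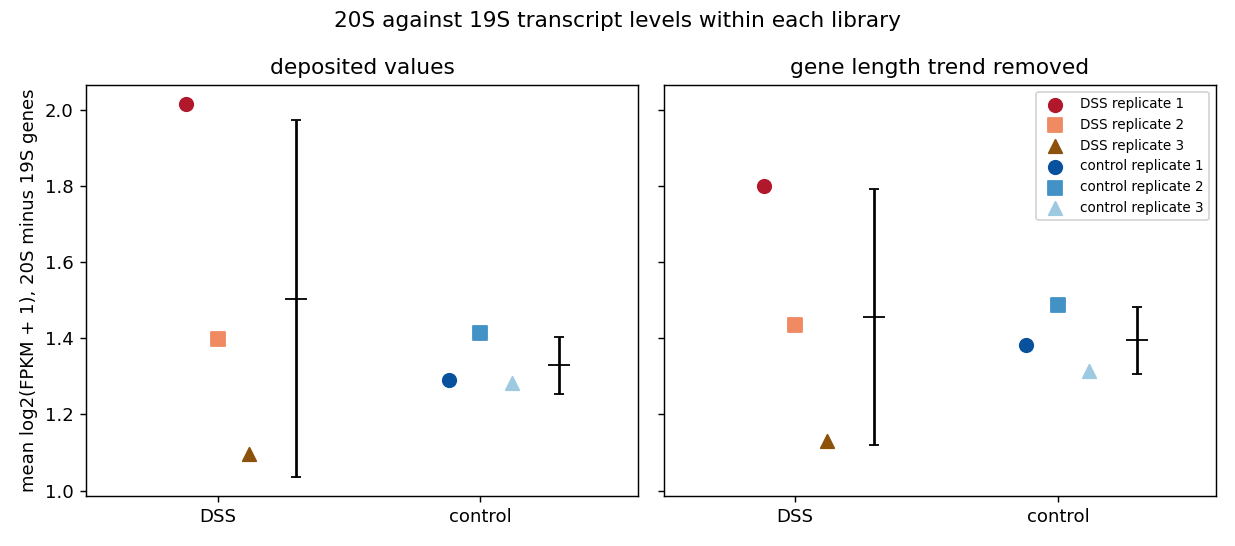
Mean log2(FPKM + 1) of the 14 tested 20S genes minus that of the 20 tested 19S genes in each library, from the deposited values (left) and after removing each library's trend with gene length (right); black marks are the group mean ± SD of 3 libraries. The DSS libraries spread from 1.10 to 2.02 in the deposited values, on both sides of the controls (1.28 to 1.41), and from 1.13 to 1.80 after the length trend was removed.

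Gene length differed between the compared sets. The lengths behind the FPKM values had a median of 1220 bp for the 20S genes, 1986 bp for the 19S genes and 2923 bp for all genes tested. In DSS replicate 1, genes under 1000 bp had a median of 0.49 above the control mean on the log2 scale and genes of 3000 bp and over −0.33 (1350 and 5908 genes). In DSS replicate 2 these medians were −0.0024 and −0.065, and in DSS replicate 3 0.72 and 0.28. Genes of 1000 to 2000 bp had medians of 0.17, −0.018 and 0.11 in DSS replicates 1, 2 and 3. Those of 2000 to 3000 bp had medians of −0.24, −0.041 and 0.19. In DSS replicate 3 the medians thus did not fall steadily with length. Spearman's rho between length and the deviation from the control mean was −0.39, −0.093 and 0.52 over the 34 genes in DSS replicates 1, 2 and 3, and −0.31, −0.050 and −0.014 over all genes, which share their library within each value. With the trend of each library with length removed, a setting chosen after the data were seen, the median log2 change was −0.27 for the 20S core and −0.31 for the 19S particle, a difference of 0.035. The core's deviation from the controls then had a median of 0.22 in DSS replicate 1, −0.16 in DSS replicate 2 and −0.78 in DSS replicate 3, and of 0.11, 0.036 and −0.17 in control replicates 1, 2 and 3, so DSS replicate 2 lay within the control range. For the 19S genes these medians were −0.14, −0.20 and −0.57 in DSS and 0.11, −0.019 and −0.16 in control, and the groups overlapped. Among genes under 2000 bp, 11 of each set, the medians without that correction were −0.07 for the core, with 7 below 0, and −0.26 for the 19S particle, with 11 below 0. These subsets still differed in length, with medians of 1183 bp for the core and 1591 bp for the 19S particle.

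**Figure D4:**
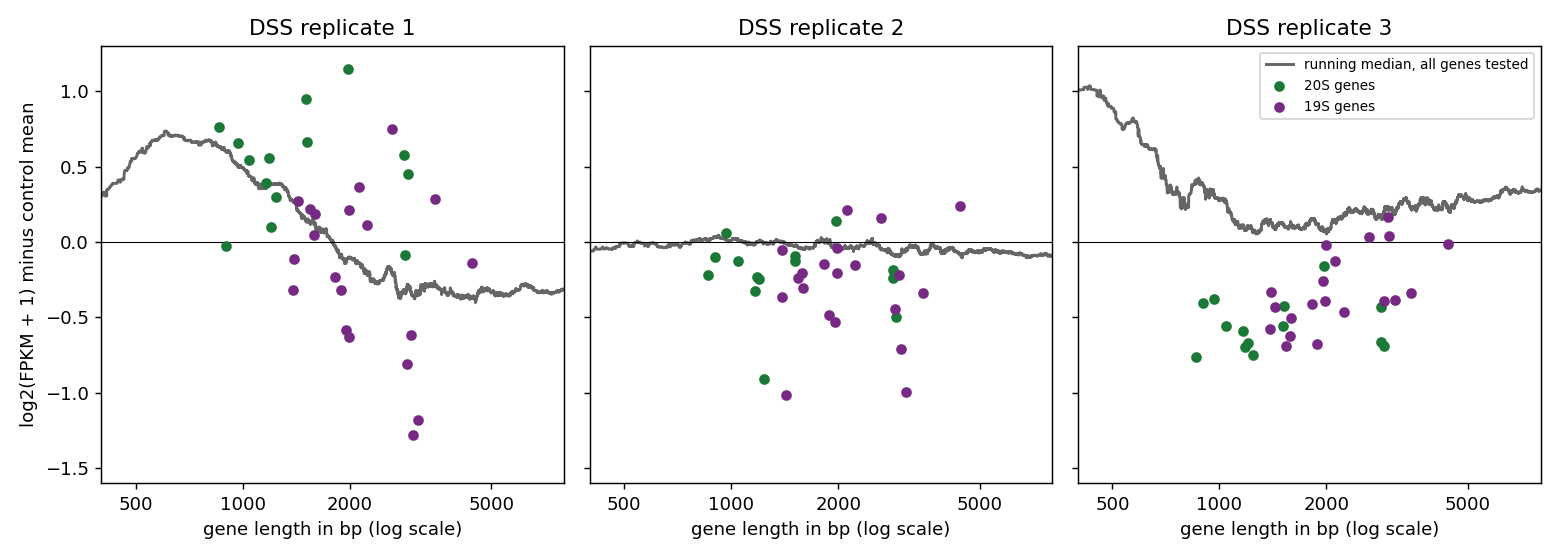
Deviation of log2(FPKM + 1) from the control mean in each DSS library against gene length in bp (log scale), for the 20S genes (green), the 19S genes (purple) and as a running median of all 12187 genes tested (grey line). The grey line is lower for long than for short genes in DSS replicate 1, is flat in DSS replicate 2, and lies above most subunit genes in DSS replicate 3.

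Psma8 and Psmb11, the germ cell alpha and thymic beta variants of the core, had means below 1 FPKM. Psma8 was listed at 0.383, 0.353 and 0.929 FPKM in DSS (11, 13 and 18 fragments) and at 0, 0.118 and 0.163 FPKM in control (0, 4 and 4 fragments). Psmb11 was listed at 0.691, 0 and 2.17 FPKM in DSS (44, 0 and 93 fragments) and at 0, 0.0797 and 1.54 FPKM in control (0, 6 and 84 fragments). Both had their highest value in DSS replicate 3, which was the highest library in 41.6% of all genes tested. It also had the most genes above 0, 22153 against 15809 to 21647 in the other libraries.

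Each immunoproteasome gene was set against the constitutive gene whose place its product takes. The Psmb8 to Psmb5 level ratio was 7.28, 5.23 and 5.18 in DSS replicates 1, 2 and 3 and 4.02, 4.64 and 3.50 in control replicates 1, 2 and 3. The Psmb9 to Psmb6 ratio was 0.412, 0.354 and 0.407 in DSS and 0.274, 0.265 and 0.172 in control, and the Psmb10 to Psmb7 ratio 12.5, 8.42 and 8.91 in DSS and 5.06, 4.46 and 5.13 in control. All 3 ratios were higher in 3 of 3 DSS libraries than in every control, by 1.45, 1.68 and 2.01 times in the geometric mean. How often the ratios of other gene pairs separate in this way is not given. The levels of Psmb9 and Psmb10 alone also lay above every control in every DSS library, as did those of 6.35% of all genes tested. The genes of each pair differ in length (1907 and 899 bp, 2884 and 966 bp, 1311 and 2849 bp, in the order named). The ratios were not corrected for the trend of each library with length. With that trend removed, the log2 changes were 0.33, 0.90 and 0.52 for Psmb8, Psmb9 and Psmb10. They were −0.46, −0.14 and −0.28 for Psmb5, Psmb6 and Psmb7. For each ratio the exact two-sided permutation p was 0.1, the smallest that 3 against 3 libraries can give. Psmb9 and Psmb10 themselves had log2 changes of 0.85 ± 0.28 SE and 0.66 ± 0.28 SE (limma adjusted p = 0.346 and 0.507), or 0.54 and 0.35 without DSS replicate 1. Psmb8 had a log2 change of 0.35 ± 0.25 SE with overlapping groups (limma adjusted p = 0.765), or 0.11 without DSS replicate 1.

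Genes that build, regulate and supply the proteasome were read from lists in the same fit, and 0 of their members passed limma's adjusted p of 0.05. At an unadjusted p under 0.05, 0 of 8 other subunits, activators and inhibitors, 1 higher of 6 assembly factors, 1 lower of 10 transcription and processing factors, 2 lower and 2 higher of 13 ubiquitin and shuttle genes, 1 lower of 6 ubiquitin editing genes and 2 higher of 3 immunoproteasome genes were past it, against 5.42% lower and 3.57% higher of all genes tested. Without DSS replicate 1, Nfe2l2, Zfand2a and Txnl1 among the genes named here passed limma's adjusted p of 0.05 (0.0288, 8.58e-04 and 0.00951). Nfe2l2 and Txnl1 were lower and Zfand2a was higher. In that setting 2.31% of all genes tested passed lower and 1.08% higher.

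Among the assembly factors, Psmg4, a chaperone of core assembly, measured 88.3, 54.0 and 34.1 FPKM in DSS replicates 1, 2 and 3, against 31.7, 33.8 and 25.3 FPKM in control (log2 change 0.84 ± 0.32 SE, limma adjusted p = 0.432). Its log2 change was 0.50 without DSS replicate 1 and 0.40 with the length trend removed. Psmg1, another, measured 14.3 ± 1.63 FPKM in DSS and 18.6 ± 2.42 FPKM in control. Pomp, which completes core maturation, measured 60.2, 30.6 and 21.7 FPKM in DSS, against 44.0, 42.5 and 35.9 FPKM in control. Pomp thus had DSS replicate 1 highest and DSS replicate 3 lowest, as most core genes did. Of the further subunits and activators, the ubiquitin receptor gene Adrm1 measured 39.4 ± 4.29 FPKM in DSS and 47.9 ± 1.26 FPKM in control, and the nuclear activator gene Psme3 27.0 ± 7.88 and 38.3 ± 1.47. In both genes, 2 of the 8 on that list, every DSS library lay below every control library, as in 9.60% of all genes tested. The same held for Psmg1, 1 of the 6 assembly factors. In Psmg4 every DSS library lay above every control library, as in 6.35% of all genes tested.

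Nfe2l1 encodes the transcription factor that raises proteasome genes when proteasome activity is short. It measured 2.79, 3.33 and 7.66 FPKM in DSS replicates 1, 2 and 3, against 4.28, 3.57 and 6.50 FPKM in control, with overlapping groups (log2 change −0.12 ± 0.35 SE, limma adjusted p = 0.955). Its relative Nfe2l2, the antioxidant response factor, measured 35.7, 44.7 and 36.8 FPKM in DSS, against 62.2, 64.4 and 64.8 FPKM in control. The groups did not overlap (log2 change −0.70 ± 0.19 SE, limma adjusted p = 0.217), as in 9.60% of all genes tested in that direction. Nfyb, a subunit of the CCAAT-binding factor NF-Y, measured 6.12 ± 2.37 FPKM in DSS and 4.05 ± 0.903 FPKM in control.

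Of the ubiquitin and shuttle genes, Zfand2a, a stress-induced protein that binds the proteasome, measured 23.8, 57.6 and 52.6 FPKM in DSS replicates 1, 2 and 3, against 18.2, 16.2 and 19.95 FPKM in control (log2 change 1.17 ± 0.32 SE, limma adjusted p = 0.217). Its groups did not overlap, as in 6.35% of all genes tested in that direction. Of the 13 tested genes on its list, 2 did not overlap on the higher side and 3 on the lower. The ubiquitin gene Ubb, chosen after its values were seen, measured 5462, 4059.9 and 2819 FPKM in DSS and 2487, 2395 and 2524 FPKM in control. It encodes near-identical ubiquitin repeats that other ubiquitin genes share, so the assignment of its fragments is uncertain. Txnl1, a thioredoxin-like protein bound to the proteasome, measured 28.4 ± 7.86 FPKM in DSS and 43.1 ± 3.06 FPKM in control, and the ubiquitin ligase gene Ube3a 3.10 ± 0.417 and 3.97 ± 0.567. The deubiquitinase gene Usp14 measured 10.4 ± 1.91 FPKM in DSS and 10.7 ± 2.88 FPKM in control.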

How the data were processed

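The authors deposited 1 table of FPKM values for 23268 genes, unit as named in the file, from 3 DSS and 3 control libraries. Per the labels' protocols, RNA was taken up in TRIzol, cDNA was made with SMART-Seq HT and libraries with Nextera XT, which does not mark the strand. Per the submitters' processing notes, the tools were cutadapt 1.9 and HISAT2 2.2.1 with the mm10 build; how fragments were counted, and on which annotation, is not given in the sources used here. Within a gene the FPKM values are whole multiples of a step, which gave whole fragments (tolerance 0.001) for 22701 of 22701 genes above 0; a gene above 0 in 1 library meets this whatever its value. Depths and gene lengths are those at which lengths came out as whole bp.

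Groups were compared with limma 3.58.1 under R 4.3.3 (eBayes with a trend, two-sided, Benjamini-Hochberg over all 12187 genes) on log2(FPKM + 1), for a mean of at least 1 FPKM over the 6 libraries. This scale understates changes of low genes. No count model was the main test. A gene at 1 value in every library kept was dropped from that fit. The subunit genes, lists, motifs and alternatives were chosen with earlier results of these data known. Values in every library are given for the subunit genes with the 4 smallest p in each of 20S and 19S, the catalytic genes and others chosen after their values were seen; related genes are those with the 2 smallest p per list, plus Nfe2l1, Pomp, Adrm1 and Usp14; some genes that these rules name are not reported here. Same-numbered libraries deviated together from their group means (correlations 0.189, 0.262 and 0.545 for replicates 1, 2 and 3). So did DSS replicate 2 with control replicate 1 (0.345) and DSS replicate 1 with control replicate 2 (0.101). Replicate 3 of either group correlated negatively with replicates 1 and 2 of the other (−0.45 to −0.218). These values do not show matched pairs, and the labels name none. Coordinates (1-based) and shared bases are from GENCODE M21, the GRCm38 build that mm10 names, with 36 of 36 symbols matched. Python 3.11.15, pandas 2.3.3 and matplotlib 3.10.9 were used.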

Additional observations from a re-analysis of the deposited data

How the results depend on the processing

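The 19S median stayed below 0 in every setting run (−0.34 to −0.17), and no proteasome gene passed in any setting other than without DSS replicate 1. The median of all genes moved as well, from −0.11 to 0.12. Without DSS replicate 3 it was −0.11, beside a 19S median of −0.19. Over all genes, 9 passed after median-of-ratios scaling, 4 without a trend, 16 with the length trend removed, 5 without both replicates 3, and 4 to 413 with 1 library left out. With 1 library left out, 0 to 3 proteasome genes passed, the 20S median was −0.40 to 0.18, and the difference of medians was −0.058 to 0.36. The 20S median was 0.17 without both replicates 3. With a replicate block in the fit, 12 genes were called higher and 10 lower (22 in all) and 0 of the 34. At an unadjusted limma p under 0.05, 3 of the 34 were lower and 0 higher. In that fit 1619 of all 12187 genes were under it, in either direction. With the block, no call reported here changed. Of single genes, log2 changes crossed 0 with 1 library left out for Psmb1 (−0.0089 to 0.64), Psmb6 (−0.16 to 0.36), Psmb2 (−0.49 to 0.27), Nfe2l1 (−0.48 to 0.11), Pomp (−0.64 to 0.078) and Usp14 (−0.13 to 0.17). Without both replicates 3, Psma1 was 0.015 and Psmb2 0.23. Usp14 was 0.027 after quantile normalization and 0.037 with the length trend removed, which put Psmb6 at −0.14. The cause was not tested. Depth was lowest in DSS replicate 3, where the rarest tested subunit had 121 fragments.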
